A study of Mus musculus with 4 samples.

Results

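The fibroblast growth factor (FGF) module comprised 36 of the 32285 genes in the count table. Its members were chosen by symbol alone: every numbered FGF gene, the receptors Fgfr1 to Fgfr4, the Sprouty genes Spry1 to Spry4, the Spred genes Spred1 to Spred3 and the phosphatase genes Dusp4, Dusp5 and Dusp6. By role they were 15 paracrine ligands, 3 endocrine ligands, 4 intracellular FGF-homologous factors, 4 receptors and 10 feedback genes. Paracrine FGFs bind receptor tyrosine kinases on the cell surface together with heparan sulphate. These receptors signal through RAS to the kinase ERK and through PI3K to AKT. ERK signalling induces its own inhibitors: Sprouty and Spred proteins act at the level of RAS and RAF, and the DUSP phosphatases remove phosphate from ERK itself. FGF2 and GDNF are the growth factors commonly used to keep mouse spermatogonia dividing in culture.

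RNA sequencing was done on 4 libraries of cultured mouse spermatogonia, called GS cells, derived from the testes of 10-day-old mice. There were 2 libraries of wild-type cells of strain 129 and 2 of wild-type cells of strain C57BL/6, called B6 here. No treatment was given in the labels for either strain. The sample titles of the B6 libraries carry the label F0, and those of the 129 libraries do not. Any difference behind that label cannot be told apart from strain. The medium, any feeder layer and the passage were not given in the sources used here. Whether same-strain libraries derive from independent cultures or mice is not stated. The p-values thus cover only the spread between these samples, and that spread may be technical.

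Total counts were 20798809 and 20375086 in the 129 libraries and 25374801 and 20488618 in the B6 libraries. Levels are given as CPM, in which each count is divided by the TMM-corrected total of its library and put on the usual per-library scale, so that the floor of 3 counts corresponds to 0.121 to 0.149 CPM. Germ cell markers were present in every library. Dazl, an RNA-binding protein of germ cells, stood at 635 and 832 CPM in 129 and at 1052 and 1010 CPM in B6. The 15 markers of undifferentiated spermatogonia summed to 2149 and 2716 CPM in 129 and to 2313 and 2783 CPM in B6. In edgeR 1 passed as higher in 129 (Etv5, given below) and 1 as lower, against 1.84% and 1.02% of all genes. Of the 15, 5 were positive and 10 negative in log2 fold change, where 50.9% of all genes were positive. The lower gene was Uchl1, a ubiquitin hydrolase of spermatogonia and the most abundant marker of its list, at 303 and 385 CPM in 129 and at 825 and 756 CPM in B6 (log2 fold change -1.20, SE 0.19, adjusted p = 0.036, edgeR); it passed only without 129 replicate 2 on leaving out 1 library at a time. Fibroblast markers were present as well, and the 15 genes of that list summed to 3765 and 1346 CPM in 129 and to 4321 and 2853 CPM in B6. In RNA from a whole culture, fewer cells of a type and less RNA per cell cannot be told apart.

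Upstream sequence is shown for the ligand with the largest fold and for 3 feedback genes, to set a feedback phosphatase with serum response factor sites beside genes that have none in the same window. The sequences are from RefSeq on GRCm38.p6, plus strand, 5′ to 3′, and end at the base before the gene's start in GENCODE M21. They are Dusp5 at chr19:53528895-53529108, Fgf7 at chr2:126034408-126034657, Spry1 at chr3:37639697-37639946 and Dusp6 at chr10:99262981-99263230. Capitals mark the pair of adjoining serum response factor boxes (CArG boxes) in Dusp5, and every CpG in the other sequences.
Dusp5: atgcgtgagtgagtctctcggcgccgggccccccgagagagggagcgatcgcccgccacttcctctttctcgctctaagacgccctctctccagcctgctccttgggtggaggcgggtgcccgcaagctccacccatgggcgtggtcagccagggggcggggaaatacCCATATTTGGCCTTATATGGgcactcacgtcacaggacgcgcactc
Fgf7: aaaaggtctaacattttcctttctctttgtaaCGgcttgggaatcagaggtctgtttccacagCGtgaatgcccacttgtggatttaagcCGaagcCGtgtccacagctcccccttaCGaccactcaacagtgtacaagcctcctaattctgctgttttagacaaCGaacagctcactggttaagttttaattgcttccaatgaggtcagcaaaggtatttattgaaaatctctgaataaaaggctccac
Spry1: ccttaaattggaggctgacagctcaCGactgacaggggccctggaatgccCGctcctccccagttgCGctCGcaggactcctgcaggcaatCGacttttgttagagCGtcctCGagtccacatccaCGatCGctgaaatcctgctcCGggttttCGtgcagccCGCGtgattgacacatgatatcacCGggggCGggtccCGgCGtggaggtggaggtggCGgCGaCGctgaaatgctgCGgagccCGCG
Dusp6: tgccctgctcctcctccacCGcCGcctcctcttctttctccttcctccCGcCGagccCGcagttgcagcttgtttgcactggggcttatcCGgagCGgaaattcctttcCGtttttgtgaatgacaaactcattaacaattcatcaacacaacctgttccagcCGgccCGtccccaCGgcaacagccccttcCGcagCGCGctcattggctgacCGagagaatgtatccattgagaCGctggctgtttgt

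Windows of 250 bases before the RefSeq start were at hand for 26 member genes, 33 windows in all. The boxes of Dusp5 began 82 and 72 bases before that start. A CArG box, searched on both strands, was present in 1 of the 33 windows and in 1.47% of 32851 windows of all genes. The ETS core CCGGAA, on either strand, was present in 3 of the 33 (9.09%), those of Fgf5, Fgf12 and Fgfr4, and in 12% of all windows. The AP-1 motif TGANTCA was present in 2 of the 33 (6.06%), those of Fgf12 and Fgf13, and in 6.75% of all. The median CpG count per window was 16 in the module and 6 over all genes; Fgf7 had 6, Dusp6 16 and Spry1 23. These matches describe letters in the window and no binding was measured.

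The strain comparison asks which genes of the pathway differ between 129 and B6 cultures. Of the 36 members 26 passed the filter on low counts, which needs enough counts in 2 libraries. Fgf1, with 7 and 4 counts in B6, met it only in 129, the strain where it is high. Fgf3 and Fgf22 met it in both libraries only of the strain where they are higher, 129 for Fgf3 and B6 for Fgf22. All 3 genes are in the counts that follow. Fgf7 and Fgf1, both paracrine ligands, were higher in 129 and passed the test, and the other 24 did not. These 2 of 26 stand beside 2.86% of all 16005 genes tested called in either direction, with 1.84% called higher and 1.02% called lower in 129. At an unadjusted p under 0.05, 12 members were higher in 129 and 1 lower, against 15.9% and 12.2% of all genes (28.1% in either direction). Both 129 libraries lay above both B6 libraries for 14 members, against 31.0% of all genes, and below them for 2, against 29.2% (60.1% in either direction). The median log2 fold change, 129 over B6, was 0.71 over the 26 members and 0.02 over all genes. The count of calls depended on the tool: DESeq2 called 6 members, all higher in 129 (9.63% of all genes; 15.3% in either direction), and limma-voom called 0, with 11 at an unadjusted p under 0.05 (1.64% of all genes called, 1.02% higher in 129).

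**Figure D1:**
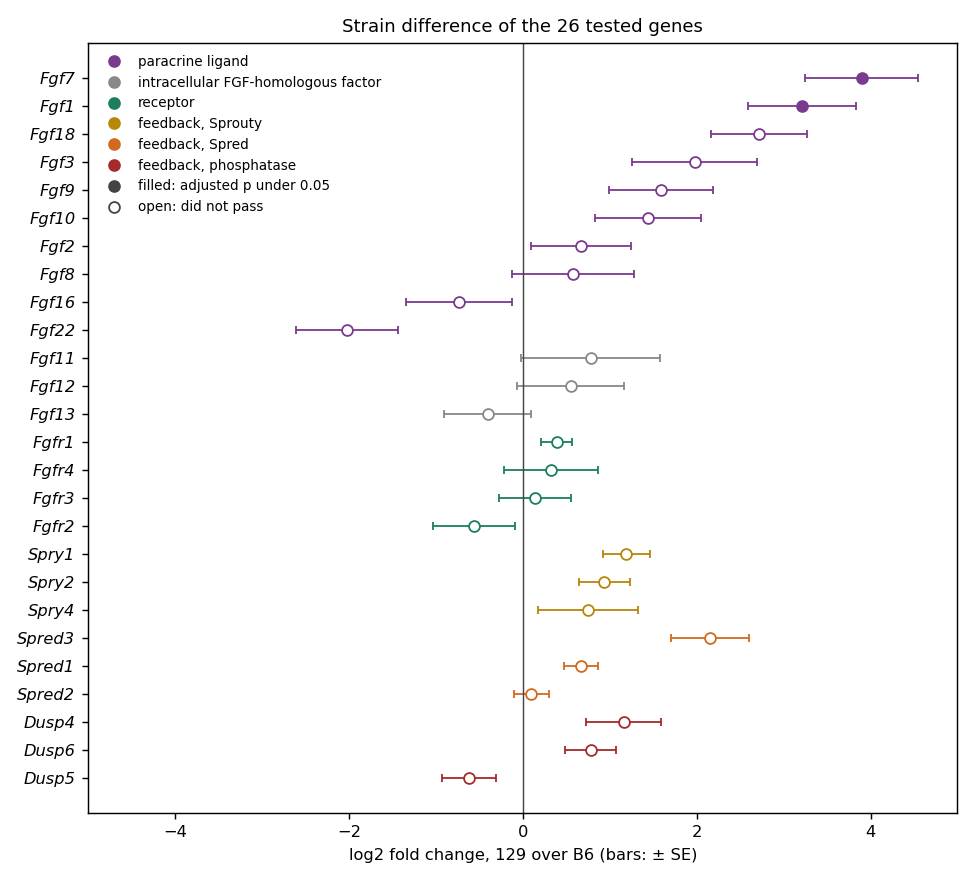
Log2 fold change of the 26 tested members, 129 over B6, with bars of ± SE, coloured by role; filled points passed an adjusted p of 0.05 in edgeR. Fgf7 at 3.90 and Fgf1 at 3.21 are the filled points, and Fgf22 at -2.02 lies farthest to the left.

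Among the secreted ligands Fgf7, a mesenchymal growth factor that acts on epithelial cells, had the largest difference. It lies at chr2:126034658-126091185 on the plus strand of GRCm38, with no other annotated gene over its exons. Fgf7 stood at 209.6 and 57.1 CPM in 129 and at 7.03 and 10.9 CPM in B6. Both 129 libraries lay above both B6 libraries, and the 129 libraries lay 3.67-fold apart. The mean was 133 ± 108 CPM in 129 and 8.96 ± 2.73 CPM in B6 (SD, n = 2 each), a log2 fold change of 3.90 (SE 0.65, adjusted p = 0.044, edgeR), or 14.9-fold. The call was lost in limma-voom (adjusted p = 0.084). With 1 library left out at a time the log2 fold change ran between 2.68 and 4.55, and Fgf7 passed only without 129 replicate 2 (adjusted p 0.0074 to 0.21 over the 4 fits).

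Within 129, most fibroblast markers were higher in the same library as Fgf7. Of the 15 fibroblast markers 14 were higher in 129 replicate 1 than in 129 replicate 2, with a median log2 ratio of 1.21. Within B6, 11 of the 15 were higher in replicate 1, with a median log2 ratio of 0.31, whereas Fgf7 was lower in that library. Of 16004 gene symbols tested, 7917 were higher in replicate 1 in 129 and 7941 in B6, with a median of 0.00 in both. Between strains the list was divided, with 6 markers positive and 9 negative in log2 fold change. At an unadjusted p under 0.05 in edgeR, 6 were higher and 5 lower in 129, against 15.9% and 12.2% of all genes. DESeq2 called 6 higher and 5 lower, against 9.63% and 5.70% of all genes. For this and the next marker lists, edgeR called 1.84% of all genes higher and 1.02% lower, and 50.9% were positive. Pdgfra, a growth factor receptor of mesenchymal cells, was the one fibroblast marker that passed in edgeR (log2 fold change 1.88, SE 0.33, adjusted p = 0.044, edgeR). It stood at 196 and 103 CPM in 129 and at 42.7 and 38.8 CPM in B6. Col3a1, a fibrillar collagen and the most abundant marker, lay the other way, at 423 and 126 CPM in 129 and 1357 and 641 CPM in B6. Its log2 fold change was -1.86 (SE 0.60, adjusted p = 0.11, edgeR), and DESeq2 called it lower (adjusted p = 0.0086). The 7 endothelial markers summed to 196 and 75.8 CPM in 129 and to 14.7 and 20.4 CPM in B6. Cdh5 and Eng, which passed as higher in 129, carried most of the 129 sums. Cdh5, an endothelial cadherin, stood at 87.9 and 27.0 CPM in 129 and at 0.723 and 2.62 CPM in B6, and Eng, a TGF-beta co-receptor, at 95.9 and 32.6 CPM in 129 and at 4.74 and 5.0 CPM in B6. Pecam1, a defining marker picked after its values were seen, overlapped at 5.94 and 8.25 CPM in 129 and 3.86 and 7.72 CPM in B6. Macrophage markers summed to 50.5 and 19.9 CPM in 129 and to 30.4 and 27.8 CPM in B6. Of the 5 tested, 2 were positive and 3 negative in log2 fold change. edgeR called 0, and 1 had an unadjusted p under 0.05. Cd14, the most abundant, stood at 28.3 and 9.20 CPM in 129 and at 2.45 and 3.47 CPM in B6. Lyz2, picked after its values were seen, lay the other way, at 7.87 and 3.32 CPM in 129 and 9.72 and 16.8 CPM in B6. Of 10 Sertoli markers tested, 9 were positive and 1 negative in log2 fold change. Of the 11 on that list, 5 lay under 1 CPM in every library and rest on few counts. Clu passed, at 193 and 90.5 CPM in 129 and 3.78 and 10.1 CPM in B6, while Dmrt1, also a gene of spermatogonia, was the negative one, at 299 and 407 CPM in 129 and 619 and 584 CPM in B6 (DESeq2 called it lower). Of 6 peritubular muscle markers, 4 were positive and 2 negative; Des passed, at 28.9 and 21.3 CPM in 129 and 2.73 and 2.87 CPM in B6, and DESeq2 called 1 higher and 1 lower. Acta2, the most abundant of that list, stood at 54.9 and 11.3 CPM in 129 and 39.9 and 10.5 CPM in B6. The 1 Leydig marker tested, Star, stood at 3.48 and 3.89 CPM in 129 and 8.11 and 5.79 CPM in B6 and did not pass. On leaving out 1 library at a time, Pdgfra, Cdh5, Eng, Clu and Des passed only without 129 replicate 2. No fibroblast, endothelial or macrophage marker was at 0 in all libraries. Of the 7 endothelial markers 2 were too low to be tested, as were 2 of the 7 macrophage markers. The part of these cells in the Fgf7 difference was not tested.

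**Figure D2:**
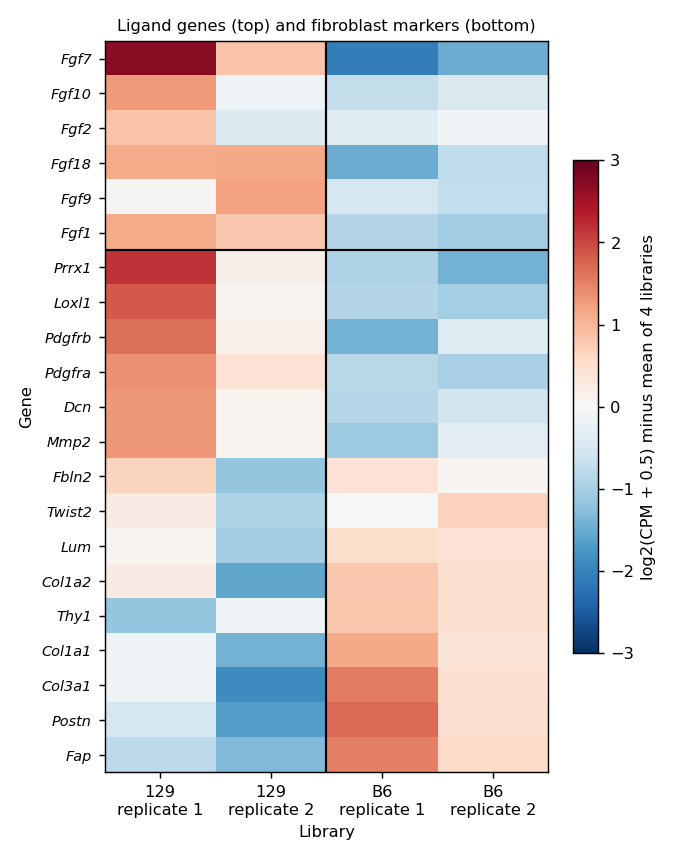
Level of 6 ligand genes and the 15 fibroblast markers in each library, as log2(CPM + 0.5) minus the mean of the 4 libraries; red is above that mean and blue below. Fgf7 is highest in 129 replicate 1, as are Prrx1 and Pdgfra, whereas Col3a1 is highest in B6 replicate 1.

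Fgf1, a ligand that binds all FGF receptors, was rare in both strains. It lies at chr18:38838673-38929472 on the minus strand. Fgf1 stood at 2.61 and 1.99 CPM in 129 and at 0.281 and 0.198 CPM in B6. The strains did not overlap, and the B6 values lay just above the floor. Fgf1 entered the test through its 129 libraries alone. Its log2 fold change was 3.21 (SE 0.62, adjusted p = 0.049, edgeR). This call was lost without the filter, with a stricter filter, in limma-voom, in the legacy form of the edgeR fit and on leaving out any library.

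Fgf18, a ligand of skeletal and lung development, stood at 6.18 and 6.26 CPM in 129 and at 0.603 and 1.34 CPM in B6. The strains did not overlap, but the gene missed the threshold (log2 fold change 2.72, SE 0.55, adjusted p = 0.052, edgeR) and passed in some alternatives, among them DESeq2 (adjusted p = 8.4e-04). Fgf22, a ligand known from synapse formation, was the one secreted ligand with an unadjusted p under 0.05 in the other direction. It stood at 0.386 and 0.474 CPM in 129 and at 2.05 and 1.44 CPM in B6 (log2 fold change -2.02, SE 0.59, adjusted p = 0.089, edgeR).

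The remaining ligands did not pass. Fgf10, which signals from mesenchyme to epithelium, stood at 11.8 and 4.13 CPM in 129 and at 2.61 and 3.27 CPM in B6. Fgf9, which acts in testis development, stood at 2.995 and 7.40 CPM in 129 and at 1.89 and 1.53 CPM in B6. Fgf3 stood at 2.03 and 4.03 CPM in 129 and at 1.21 and 0.248 CPM in B6. For these 3 genes both 129 libraries lay above both B6 libraries, with log2 fold changes of 1.44, 1.59 and 1.98 (adjusted p 0.18, 0.14 and 0.13, edgeR). Fgf2, the ligand used to culture spermatogonia, stood at 7.34 and 2.75 CPM in 129 and at 2.85 and 3.51 CPM in B6. Its strains overlapped (log2 fold change 0.67, SE 0.58, adjusted p = 0.49, edgeR); 13.2% of its exon length is shared with other annotated genes, Nudt6 among them. Fgf8 and Fgf16 averaged under 1 CPM in both strains and did not pass.

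Per kilobase of exon (RPKM), Fgf7 took 83.7% and 57.4% of the summed secreted ligand level in 129 and 31.3% and 38.9% in B6. Without Fgf7 the secreted ligands summed to 36.1 and 31.5 CPM in 129 and to 13.6 and 14.2 CPM in B6. Both 129 sums lay above both B6 sums. None of the 3 endocrine ligands, Fgf15, Fgf21 and Fgf23, was tested, and their counts ran from 1 to 16 per library. The other untested ligands, Fgf4, Fgf5, Fgf6, Fgf17 and Fgf20, had 0 to 15 counts per library.

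**Figure D3:**
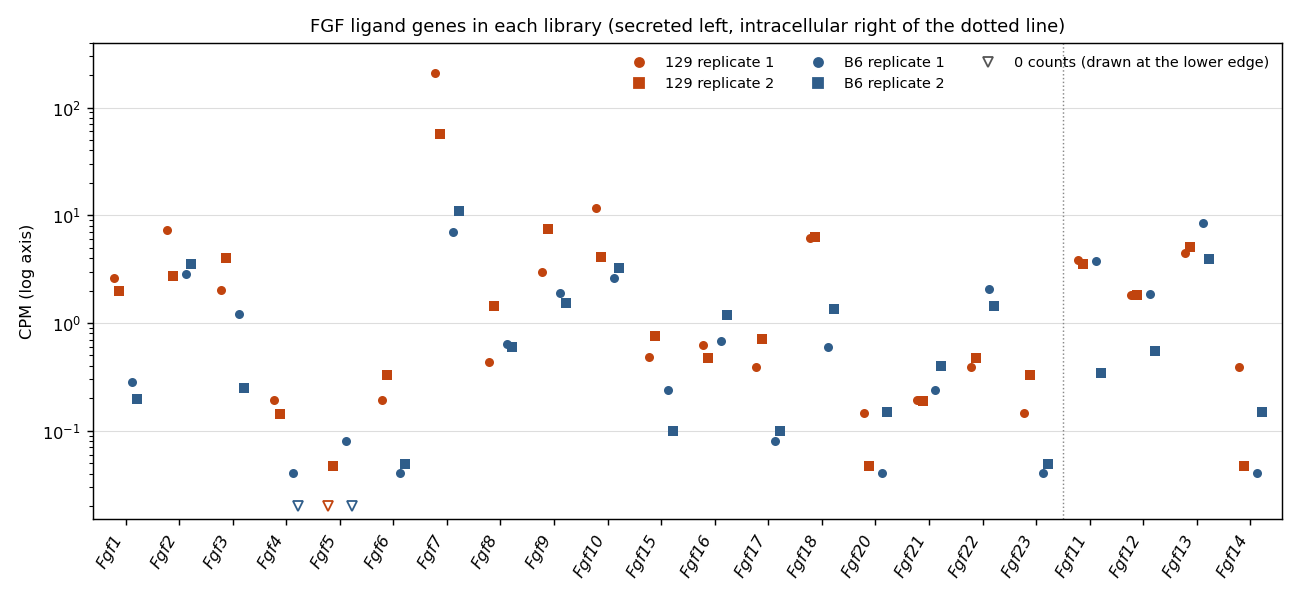
Level of the 18 secreted and 4 intracellular FGF genes in each library, in CPM on a log axis, with 129 left of B6 for each gene and open triangles for 0 counts. Fgf7 lies above every other ligand in the 129 libraries, at 209.6 and 57.1 CPM.

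The intracellular FGF-homologous factors are not secreted and bind sodium channels. Fgf11 stood at 3.86 and 3.51 CPM in 129 and at 3.74 and 0.347 CPM in B6. Fgf12 stood at 1.84 and 1.80 CPM in 129 and at 1.85 and 0.545 CPM in B6. Fgf13 stood at 4.49 and 5.07 CPM in 129 and at 8.56 and 3.96 CPM in B6. The strains overlapped for all 3 and none passed; B6 replicate 2 was the lowest library for each. Fgf14 had 1 to 8 counts per library and was not tested.

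Fgfr1 was the main receptor gene in all 4 libraries. It stood at 259 and 241 CPM in 129 and at 175 and 206 CPM in B6. Both 129 libraries lay above both B6 libraries, but the difference did not pass (log2 fold change 0.39, SE 0.18, adjusted p = 0.21, edgeR). Per kilobase of exon, Fgfr1 took 91.8% and 88.0% of the summed receptor level in 129 and 85.0% and 89.5% in B6, and these shares overlapped.

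The other receptors were far lower and overlapped between strains. Fgfr3 stood at 10.2 and 17.3 CPM in 129 and at 14.2 and 10.7 CPM in B6, Fgfr2 at 6.33 and 3.60 CPM in 129 and at 8.64 and 5.94 CPM in B6, and Fgfr4 at 1.06 and 1.94 CPM in 129 and at 1.08 and 1.34 CPM in B6. Their log2 fold changes were 0.14, -0.56 and 0.32 (SE 0.41, 0.47 and 0.54). In RPKM the order in the mean of the 4 libraries was Fgfr1 at 22.3, Fgfr3 at 1.83, Fgfr2 at 0.593 and Fgfr4 at 0.383, and the libraries of Fgfr2 and Fgfr4 overlapped in range.

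Of the 10 feedback genes 9 were tested and 0 passed in edgeR, while 6 had an unadjusted p under 0.05, all higher in 129 (15.9% of all genes were); DESeq2 called 3, all higher (9.63% of all genes), and limma-voom 0. The log2 fold change was positive for 8 of the 9, with a median of 0.78; over all genes 50.9% were positive. Both 129 libraries lay above both B6 libraries for 7 of the 9, as for 31.0% of all genes.

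The Sprouty genes encode inhibitors that act between receptor and ERK. Spry1 stood at 45.9 and 46.9 CPM in 129 and at 22.7 and 17.9 CPM in B6. The strains did not overlap, and the gene missed the threshold (log2 fold change 1.19, SE 0.27, adjusted p = 0.057, edgeR; 0.0018 in DESeq2); 24.4% of its exon length lies over an annotated gene on the opposite strand. Spry2 stood at 65.4 and 62.3 CPM in 129 and at 25.0 and 41.6 CPM in B6, again without overlap (log2 fold change 0.94, SE 0.29, adjusted p = 0.10, edgeR; 0.045 in DESeq2). Spry4 stood at 64.5 and 93.8 CPM in 129 and at 20.0 and 74.8 CPM in B6. The strains overlapped for Spry4, whose log2 fold change of 0.75 (SE 0.57) became 0.08 without B6 replicate 1 and 1.94 without B6 replicate 2. Spry3 had 0 counts in every library. In GENCODE M21 it lies on the scaffold GL456233.1, outside the assembled chromosomes, and whether reads could be counted there was not tested.

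The Spred genes encode Sprouty-related inhibitors that bring neurofibromin to the membrane. Spred3 stood at 22.9 and 15.7 CPM in 129 and at 3.25 and 5.54 CPM in B6. The strains did not overlap, and the log2 fold change of 2.15, the largest of the feedback genes tested, missed the threshold (SE 0.45, adjusted p = 0.054, edgeR; 1.1e-04 in DESeq2). Spred1 stood at 143 and 166 CPM in 129 and at 102 and 91.8 CPM in B6 (log2 fold change 0.67, SE 0.19, adjusted p = 0.086, edgeR). Spred2 stood at 72.9 and 68.4 CPM in 129 and at 64.3 and 67.9 CPM in B6, nearly level between strains (log2 fold change 0.10, SE 0.20).

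None of the phosphatase genes passed. Dusp6, the cytoplasmic ERK phosphatase, stood at 221 and 179 CPM in 129 and at 85.0 and 148 CPM in B6 (log2 fold change 0.78, SE 0.29, adjusted p = 0.14, edgeR). Dusp4, a nuclear phosphatase, stood at 80.1 and 40.6 CPM in 129 and at 18.8 and 35.3 CPM in B6 (log2 fold change 1.16, SE 0.43, adjusted p = 0.14, edgeR). For both genes the strains did not overlap. Dusp5, a nuclear phosphatase specific for ERK and the gene with the CArG boxes shown above, stood at 131 and 105 CPM in 129 and at 127 and 236 CPM in B6. Its strains overlapped and its log2 fold change was -0.62 (SE 0.31, adjusted p = 0.25, edgeR); 22.1% of its exon length lies over a gene on the opposite strand. Per kilobase of exon, Dusp5 and Dusp6 had the highest mean levels of the module, at 60.5 and 50.5 RPKM over the 4 libraries, and their libraries overlapped.

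**Figure D4:**
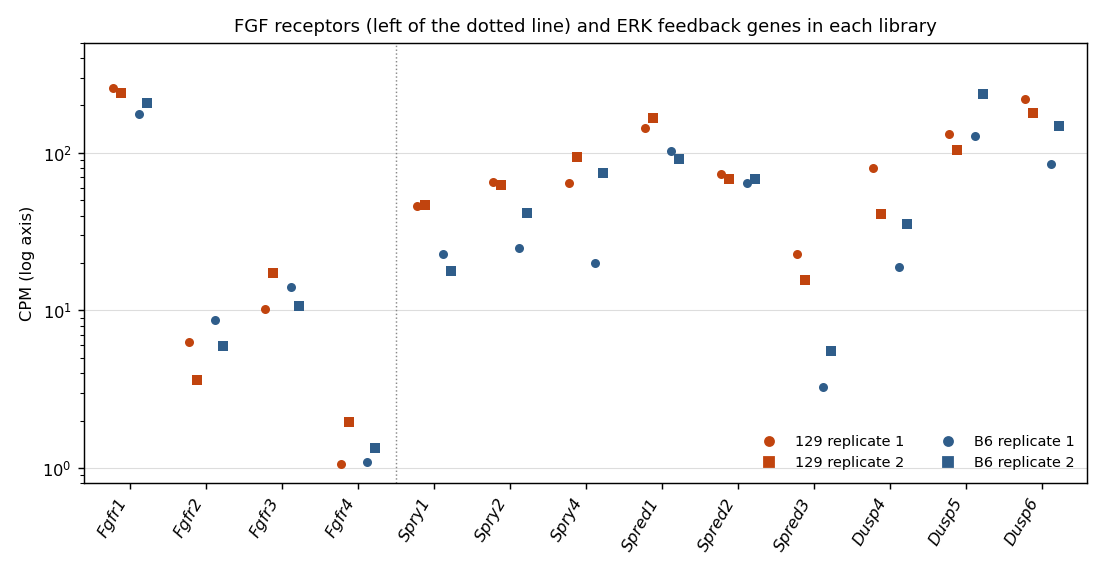
Level of the 4 receptor genes and the 9 tested feedback genes in each library, in CPM on a log axis, with 129 left of B6 for each gene. Fgfr1 lies between 175 and 259 CPM in every library, and Spred3 lies at 22.9 and 15.7 CPM in 129, above 3.25 and 5.54 CPM in B6.

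The feedback genes also differed within B6. In B6 replicate 1 7 of the 9 were lower than in B6 replicate 2, with a median log2 ratio of replicate 1 over replicate 2 of -0.72, against 0.00 over all genes tested; in 129 the median was 0.09. Gfra1 and Ret, which form the GDNF receptor and were picked after their values were seen, were lower in the same library. Both are on the list of undifferentiated spermatogonia. Of its 15 genes 6 went the other way, higher in B6 replicate 1, and the median log2 ratio was -0.44. Ret stood at 529 and 644 CPM in 129 and at 147 and 362 CPM in B6. Gfra1 stood at 216 and 248 CPM in 129 and at 77.1 and 227 CPM in B6. Their part in the feedback difference was not tested.

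The 23 ERK-induced transcription factors and other target genes had a median log2 fold change of 0.37. At an unadjusted p under 0.05 in edgeR, 7 were higher and 3 lower in 129, against 15.9% and 12.2% of all genes. DESeq2 called 6 higher and 1 lower, against 9.63% and 5.70% of all genes. The lower one was Egr3, at 39.5 and 12.7 CPM in 129 and 73.4 and 212 CPM in B6. In edgeR 1 passed as higher in 129 and 0 as lower, against 1.84% and 1.02% of all genes. That gene was Etv5, an ETS factor needed for spermatogonial self-renewal, which is also on the list of spermatogonial markers. Etv5 stood at 202 and 234 CPM in 129 and at 59.2 and 80.4 CPM in B6, without overlap (log2 fold change 1.64, SE 0.22, adjusted p = 0.032, edgeR). With 1 library left out at a time its log2 fold change ran between 1.43 and 1.84 and the adjusted p between 0.043 and 0.16; it passed only without 129 replicate 2. The immediate early genes Egr1 and Fos, the most abundant of the list, did not pass. Egr1 stood at 805 and 452 CPM in 129 and at 1102 and 1071 CPM in B6 (log2 fold change -0.79, SE 0.28, adjusted p = 0.13, edgeR). Fos stood at 492 and 144 CPM in 129 and at 349 and 296 CPM in B6, with overlap. In 129, 19 of the 23 target genes were higher in replicate 1 than in replicate 2, with a median log2 ratio of 0.75. In B6, 8 of the 23 were higher in replicate 1, with a median log2 ratio of -0.25. Over 16004 gene symbols tested, 7917 were higher in replicate 1 in 129 and 7941 in B6, with a median of 0.00 in both.

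**Figure D5:**
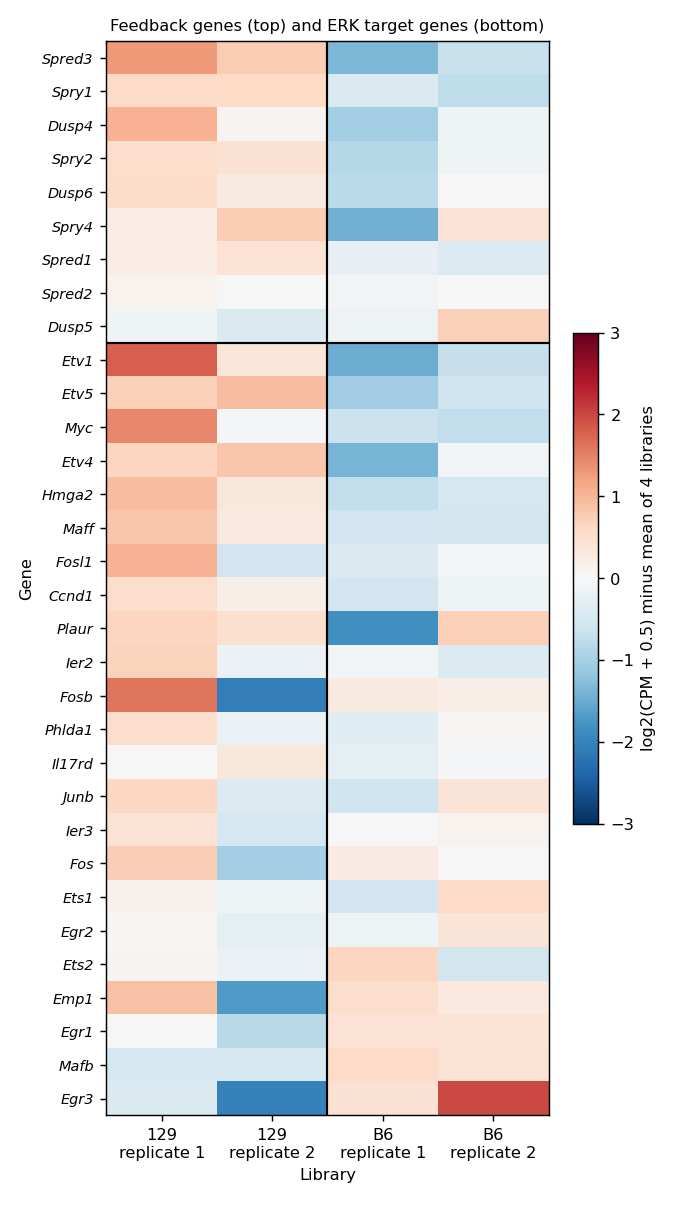
Level of the 9 tested feedback genes and the 23 ERK target genes in each library, as log2(CPM + 0.5) minus the mean of the 4 libraries; red is above that mean and blue below. Etv5, with a log2 fold change of 1.64, is red in both 129 libraries and blue in both B6 libraries.

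No gene passed in the other 5 pathway lists, where edgeR called 2.86% of all genes in either direction. At an unadjusted p under 0.05 in edgeR, 15.9% of all genes were higher and 12.2% lower in 129. The counts of each list stand beside these shares. The co-receptor and heparan sulphate list had 23 genes tested, with 4 higher and 3 lower at an unadjusted p under 0.05; its most abundant gene, the syndecan Sdc4, stood at 694 and 793 CPM in 129 and at 804 and 1394 CPM in B6. Hspg2, which encodes perlecan, stood at 344 and 184 CPM in 129 and at 239.7 and 255 CPM in B6, with overlap. The 15 adaptors had 1 higher and 1 lower at that p, and the most abundant were Ptpn11, at 223 and 185 CPM in 129 and 179 and 164 CPM in B6, and Crkl, at 172 and 224 CPM in 129 and 373 and 214 CPM in B6. The 25 genes from RAS to ERK had 2 higher and 2 lower; Nf1, whose product neurofibromin turns RAS off, stood at 155 and 205 CPM in 129 and at 267 and 214 CPM in B6, without overlap (log2 fold change -0.42, SE 0.22, adjusted p = 0.26, edgeR). The 9 other dual-specificity phosphatases had 1 higher and 1 lower, and Dusp9 stood at 301 and 303 CPM in 129 and at 144 and 190 CPM in B6 (log2 fold change 0.85, SE 0.20, adjusted p = 0.061, edgeR). Dusp1, an immediate early phosphatase, stood at 459.5 and 81.4 CPM in 129 and at 114 and 128 CPM in B6, with overlap. DESeq2 called 10 genes higher and 10 lower over the 113 genes tested in the 6 lists, against 9.63% and 5.70% of all genes (15.3% in either direction), and limma-voom called Etv5 alone.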

How the data were processed

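The count table, as deposited, gives unnormalized read counts for each gene and library. Per the submitters' processing notes, the authors worked on build mm10; the tools listed are HISAT2 (2.2.1) and HTSeq (0.13.5), with cutadapt (3.4), bcl2fastq (2.20) and DESeq2 (1.30.1). The strand setting of the counting and its annotation were not given in the sources used here. The kit was stranded, per the labels' protocols. Overlapping genes may share or lose counts, and 129 reads were mapped to a C57BL/6 genome.

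Strain was the single term of a robust quasi-likelihood model in edgeR (4.0.16, R 4.3.3), after TMM scaling and filterByExpr, which left 16005 genes. Benjamini-Hochberg adjustment covered every gene in the fit, and calls needed an adjusted p under 0.05. Each SE equals the size of the log2 fold change over the root of its F statistic. Within a strain the libraries differed beyond sampling noise (chi-square per gene 70.4 in 129 and 55.2 in B6). With 2 libraries per strain an exact two-sided permutation test of a single gene cannot go below 0.333. RPKM use the union of exons in GENCODE M21 on GRCm38, which held 99.85% of the gene identifiers. A pseudocount of 0.5 CPM was used for log ratios between libraries. Floors cover counting error only.

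Alternatives were other scalings and filters, DESeq2 1.42.0, limma-voom (limma 3.58.1), a non-robust and a legacy fit, a replicate block and leaving out each library. The form of the edgeR fit (legacy or not) was chosen after seeing the data. The members and gene lists were chosen with earlier results of these data known. Every member is named, with values per library at a mean of at least 1 CPM in a strain. From pathway lists the text names genes called and the 2 most abundant, and from marker lists genes called and the most abundant; other genes were picked after their values were seen. For 1 gene of a pathway list, values are not reported here.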

Additional observations from a re-analysis of the deposited data

How the results depend on the processing

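Over all genes, 457 were called; the count was 1021 with upper-quartile factors, 1052 with library totals, 260 without the filter, 2455 with DESeq2, 263 with limma-voom, 844 with the replicate block and 0 to 827 with 1 library left out. Among the members, 2 were called; the count was 5 with upper-quartile factors, 5 with library totals, 1 without the filter, 1 with a stricter filter, 6 with DESeq2, 0 with limma-voom, 1 in the legacy form of the edgeR fit (chosen after seeing the data) and 0 to 1 with 1 library left out. In the pathway lists, 1 was called; the count was 2 with DESeq2 size factors, 3 with upper-quartile factors, 5 with library totals, 20 with DESeq2, 2 with the non-robust fit, 3 with the replicate block and 0 to 6 with 1 library left out. Over all genes edgeR called 0 without B6 replicate 1 (3251 at an unadjusted p under 0.05), 1 without B6 replicate 2, 13 without 129 replicate 1 and 827 without 129 replicate 2. No shared shift of same-numbered libraries was seen: their deviations correlated at -0.0191 across genes. With 2 libraries per strain this cannot exclude that they were handled together. The replicate block called 3 members, Fgf1, Fgf7 and Fgf18.

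Signs changed for 11 genes named by the rule, none of them called. With 1 library left out, log2 fold changes ran from -1.16 to 1.65 for Acta2, -0.57 to 1.93 for Dusp1, -0.06 to 3.38 for Fgf11, -0.07 to 1.72 for Fgf12, -0.88 to 0.27 for Fgf13, -0.20 to 1.21 for Fgf2, -0.51 to 1.19 for Fgf8, -0.29 to 0.48 for Fgfr3, -0.18 to 0.70 for Fgfr4, -1.16 to 0.61 for Fos and -0.42 to 0.48 for Hspg2. Pecam1, picked after its values were seen, ran from -0.13 to 0.84. With library totals Fos was at 0.01. The causes were not tested. With 2 libraries per strain, members under about 1 CPM rest on few counts.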

Other observations

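The PI3K to AKT branch, the other arm below FGF receptors, had 18 genes tested and 0 called by edgeR, with 9 positive and 9 negative in log2 fold change and a median of -0.16. At an unadjusted p under 0.05, 1 was higher and 5 lower in 129, against 15.9% and 12.2% of all genes. DESeq2 called 0 higher and 4 lower, against 9.63% and 5.70% of all genes. Mtor, the growth kinase and one of the most abundant genes of the list, stood at 274 and 333 CPM in 129 and at 404 and 391 CPM in B6 (log2 fold change -0.39, SE 0.18, adjusted p = 0.21, edgeR). Rictor, a subunit of mTOR complex 2, stood at 215 and 289 CPM in 129 and at 339 and 309.7 CPM in B6 (log2 fold change -0.36, SE 0.20). Foxo1, a transcription factor held out of the nucleus by AKT and picked after its values were seen, stood at 128 and 174 CPM in 129 and at 292 and 281 CPM in B6. The strains did not overlap for Foxo1, which missed the threshold (log2 fold change -0.92, SE 0.21, adjusted p = 0.058, edgeR; 0.0095 in DESeq2). All 7 germ cell markers were negative in log2 fold change, where 50.9% of all genes were positive. For 6 of them both 129 libraries lay below both B6 libraries, against 29.2% of all genes. DESeq2 called 3 lower in 129, against 5.70% of all genes. In edgeR 1 passed as lower, against 1.02% of all genes. It was Rnf17, a protein of germ granules, at 84.2 and 107.6 CPM in 129 and at 229.9 and 187 CPM in B6 (log2 fold change -1.12, SE 0.22, adjusted p = 0.049, edgeR), a call lost on leaving out any library. The part of these markers in the PI3K to AKT values was not tested.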
